A study of Mus musculus with 18 samples.

Results

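The 3 caudal-type homeobox genes of the mouse, Cdx1, Cdx2 and Cdx4, were followed through the exit from pluripotency. They were taken by symbol from a count table of 55487 genes and are all the members of their family in it. RNA was sequenced from mESCs of the ES-E14TG2a line cultured in Serum/LIF and from embryoid bodies (EBs), the aggregates such cells form in suspension without LIF, at 48 hr and 96 hr. The study edited the cells with Cas9 and a guide pair against the first exon of Nfkbia, the gene of the NF-κB inhibitor IκBα, or with non-targeting guides, and picked single clones. Each stage has 3 IκBα-WT (IkappBalpha+/+) and 3 IκBα-KO (IkappBalpha-/-) libraries, 18 in all, from separate clones of each genotype. The mESC columns of the table name the genotype. The EB columns carry only a code (D4, E14, E2, E3, H7 or H9) and a time, so that each EB stage was analysed as 6 libraries of mixed genotype and the spread within a stage holds the difference between genotypes. IκBα-KO and IκBα-WT cells were compared in mESCs only.

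Cdx proteins are homeodomain transcription factors related to caudal of the fly. In the gastrulating embryo they are made in the primitive streak and later in the tailbud, downstream of Wnt, FGF and retinoic acid signals, and they activate Hox genes of the trunk and tail together with Cyp26a1, which degrades retinoic acid. Cdx2 also specifies the trophectoderm of the blastocyst, and Cdx1 and Cdx2 are kept in the adult intestinal epithelium. With Gsx1, Gsx2 and Pdx1 they form the ParaHox genes.

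The members are related in sequence, which bears on whether their reads can be told apart. By the GENCODE M21 annotation of GRCm38, each gene has 1 transcript of 3 exons, no gene overlaps any of them, and the middle exon, which holds most of the homeobox, is 146 bases long in all 3. Cdx2 lies at chr5:147300805-147307270 on the minus strand, between Pdx1 and Urad. Cdx4 lies at chrX:103321398-103330592 on the plus strand, between Nap1l2 and Chic1. Over exon 2 the closest pair, Cdx2 and Cdx4, shares 118 of 146 bases (80.8%), and the sequences below, at chr5:147303181-147303326 (minus strand) and chrX:103328009-103328154 (plus strand), show in capitals the bases at which these 2 differ. The longest identical stretch between their whole transcripts is 22 bases, against reads of 125 bases, so a read would rarely fit both.
Cdx2 exon 2: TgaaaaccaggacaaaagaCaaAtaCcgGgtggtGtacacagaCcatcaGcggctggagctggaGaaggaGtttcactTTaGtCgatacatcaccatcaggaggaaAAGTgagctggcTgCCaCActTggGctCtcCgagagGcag
Cdx4 exon 2: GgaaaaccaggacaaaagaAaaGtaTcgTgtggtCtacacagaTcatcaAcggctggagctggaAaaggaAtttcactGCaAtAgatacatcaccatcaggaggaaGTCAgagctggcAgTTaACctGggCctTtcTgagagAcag

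The bases before the annotated start of Cdx2 (chr5:147307271-147307499, minus strand, 229 bases) and of Cdx4 (chrX:103321148-103321397, plus strand, 250 bases) were read from RefSeq on GRCm38.p6, in which these 2 of the 3 members matched. At 96 hr all 3 members were highest in the same libraries, and the 2 that matched are shown. Both were searched on both strands for the letters TATAAA of the TATA box, CTTTGAT of Tcf/Lef factors, TTTATG of Cdx factors, AGGTCA of nuclear receptors such as the retinoic acid receptors, and TCACAC of T-box factors. None of these letters is in either window, while they are in 12.4%, 3.21%, 10.8%, 14% and 12.3% of 32851 RefSeq promoters, read over 250 bases before the start. Both windows hold the octamer ATGCAAAT, the letters read by POU factors such as Oct4, which 1.6% of those promoters hold. This motif was chosen after the windows had been read and is shown in capitals.
Cdx2 before the start: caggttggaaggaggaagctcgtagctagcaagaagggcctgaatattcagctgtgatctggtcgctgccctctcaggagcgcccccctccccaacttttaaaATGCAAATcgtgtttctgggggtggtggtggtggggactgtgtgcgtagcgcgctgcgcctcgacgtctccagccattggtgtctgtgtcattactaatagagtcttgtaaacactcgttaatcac
Cdx4 before the start: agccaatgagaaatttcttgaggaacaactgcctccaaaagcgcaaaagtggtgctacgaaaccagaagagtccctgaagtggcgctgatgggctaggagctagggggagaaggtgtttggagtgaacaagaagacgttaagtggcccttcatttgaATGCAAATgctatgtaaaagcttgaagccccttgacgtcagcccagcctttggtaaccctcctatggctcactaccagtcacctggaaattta
In Cdx2 the octamer stands 126 to 119 bases before the start, and in Cdx4 93 to 86 bases before it. The Cdx2 window has 53.7% G and C with 11 CpG dinucleotides, and that of Cdx4 48.4% with 5.

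The counts on genes ranged from 28287582 to 40904247 per library. At this depth the Cdx genes were close to the lower end of what can be measured, with 6 to 601 reads per library. A count of 6 has a 95% exact Poisson interval of 2.20 to 13.1 and a count of 601 one of 554 to 651, counting error only. Levels are given as CPM, a gene's count relative to the total of its library, after TMM scaling of the 18 libraries. In bulk RNA, fewer cells of a type and less RNA per cell cannot be told apart.

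Cdx2, which marks the posterior streak and tailbud, was the lowest of the family per kilobase of transcript in mESCs and the highest in 4 of the 6 EB libraries at 96 hr. In D4, one of these, it was nearly level with Cdx1 and Cdx4 (34.9%, 33.0% and 32.1% of their sum, on 15, 11 and 12 reads). The Cdx2 counts in mESCs were 9, 7 and 12 in IκBα-WT and 14, 11 and 12 in IκBα-KO. At 48 hr they were 28, 46, 17, 16, 14 and 21 in the libraries D4, E14, E2, E3, H7 and H9. Every 48 hr library lay above every mESC library once scaled, at 0.438 to 1.57 CPM against 0.230 to 0.411 CPM. At 96 hr the counts in the same order of codes were 15, 601, 16, 19, 146 and 286. E14, H7 and H9 were thus at 15.8, 4.63 and 8.56 CPM, and D4, E2 and E3 at 0.434, 0.444 and 0.498 CPM, within the range of the 48 hr libraries or just below it.

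Cdx4, the member most restricted to the posterior end of the embryo, was measured at 0.407 to 0.755 CPM in mESCs, from 12 to 24 reads. At 48 hr its counts were 26, 17, 15, 25, 19 and 6 in D4, E14, E2, E3, H7 and H9, which is 0.222 to 0.884 CPM and covers the mESC range. At 96 hr they were 12, 91, 17, 12, 41 and 47. The libraries above all mESC and all 48 hr libraries were again E14 at 2.39 CPM, H9 at 1.41 CPM and H7 at 1.30 CPM.

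Cdx1 is the member whose domain reaches furthest forward along the axis. Over the mESC libraries of both genotypes its SD of log2 CPM was 0.90, against 0.27 for Cdx2 and for Cdx4. This SD holds the difference between genotypes. Among IκBα-WT libraries the SD was 0.042 CPM for Cdx1, 0.083 for Cdx2 and 0.18 for Cdx4. Among IκBα-KO libraries it was 0.49, 0.071 and 0.022 CPM. In mESCs Cdx1 had 16, 14 and 15 reads in IκBα-WT and 36, 78 and 70 in IκBα-KO. At 48 hr it had 44, 14, 31, 39, 13 and 7 reads in D4, E14, E2, E3, H7 and H9, and at 96 hr 11, 69, 13, 44, 80 and 113. D4, E2 and E3 were the 3 highest at 48 hr, and E14, H7 and H9 the 3 highest at 96 hr.

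**Figure D1:**
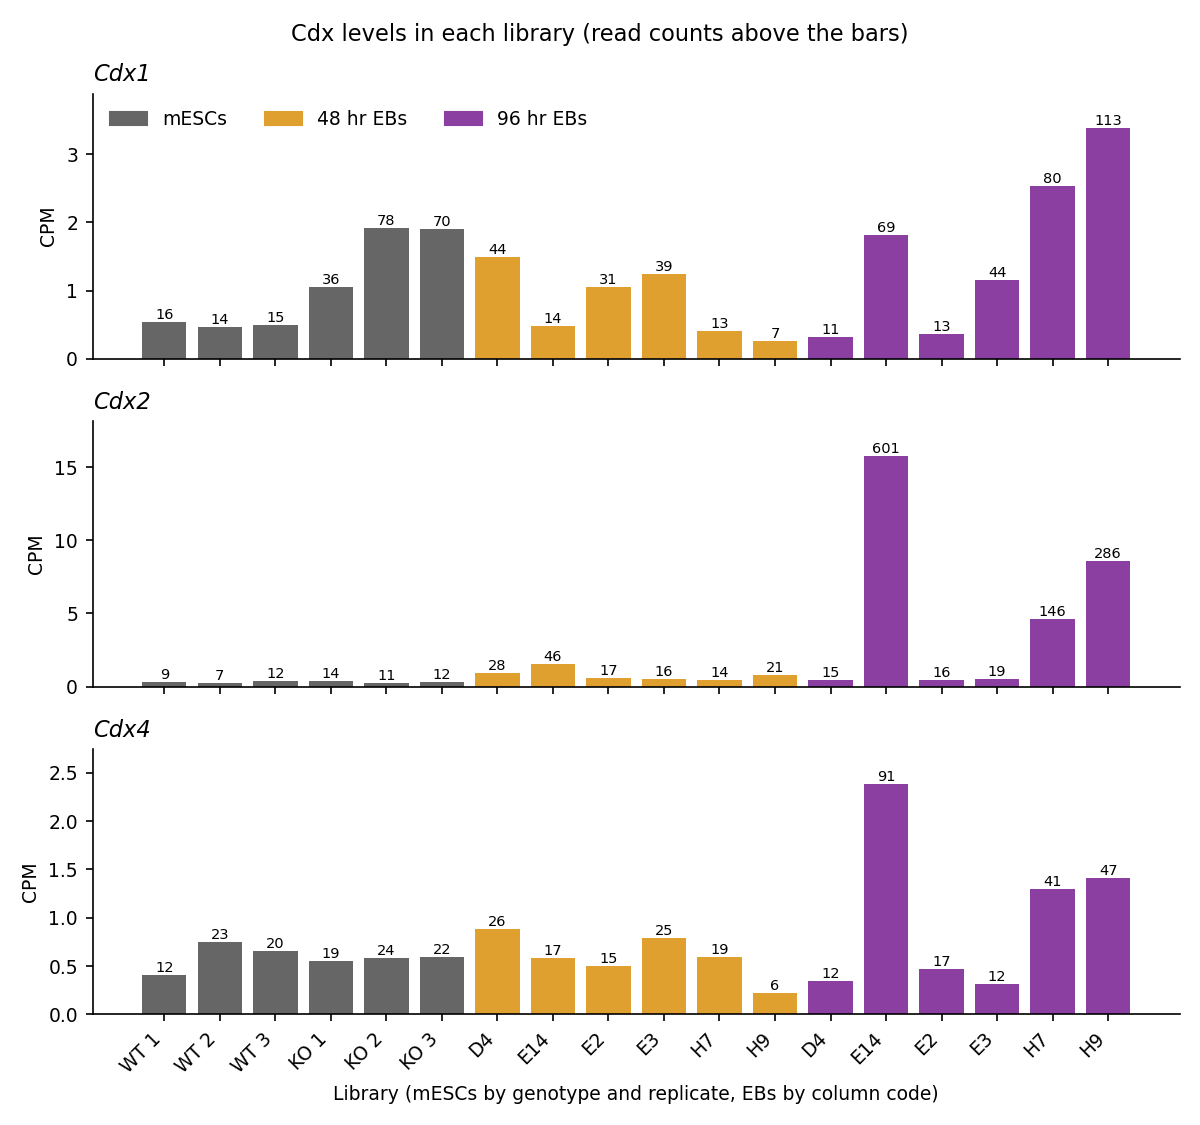
Cdx1, Cdx2 and Cdx4 in each of the 18 libraries, in CPM (vertical axis, a range of its own for each gene), with the read count above each bar; bars are single libraries, coloured by stage. At 96 hr Cdx2 reaches 15.8 CPM in E14, 8.56 in H9 and 4.63 in H7 and stays under 0.5 CPM in D4, E2 and E3.

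Libraries of one code at 48 hr and 96 hr deviated from their stage means together (correlation across genes from 0.40 to 0.73 for the 6 codes), although the 48 hr library of E14 (0.48) correlated more with the 96 hr library of another code, and they are therefore set side by side. Cdx2 was 10 times as high at 96 hr as at 48 hr in E14, 10.6 times in H7 and 11 times in H9, whereas in D4, E2 and E3 the ratio was 0.455, 0.774 and 0.984. For Cdx1 the ratio was 3.78 in E14, 6.23 in H7 and 13.1 in H9, and 0.212, 0.345 and 0.934 in D4, E2 and E3. All 3 Cdx genes were higher at 96 hr in E14, H7 and H9 and at or below their 48 hr level in D4, E2 and E3. Cdx4 had ratios of 4.10, 2.19 and 6.34 in the former and 0.392, 0.933 and 0.398 in the latter. The genotype of these codes is not in the labels, and no test was made between them.

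**Figure D2:**
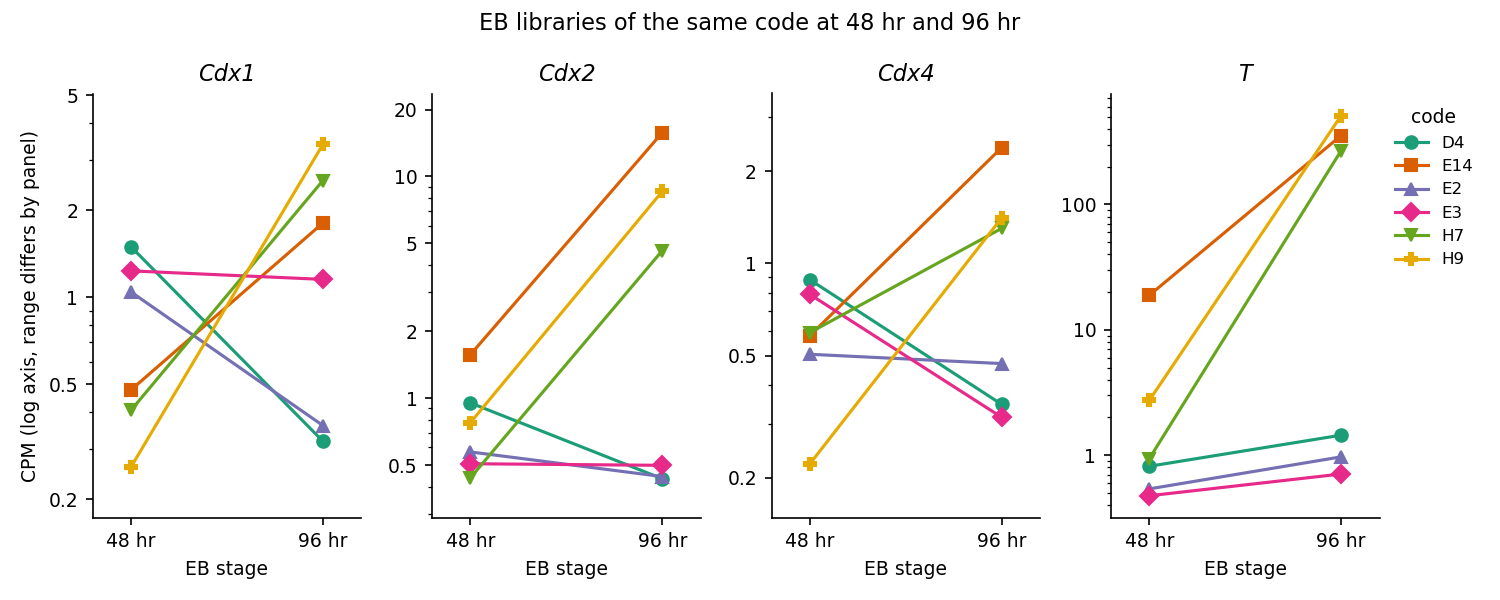
Levels of Cdx1, Cdx2, Cdx4 and the streak gene T in CPM (log axis, with a range of its own in each panel) in the EB libraries of each code at 48 hr and 96 hr; a line joins the libraries that carry one code. For each Cdx gene the lines of E14, H7 and H9 go up and those of D4, E2 and E3 stay level or go down.

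The stages were compared with the quasi-likelihood test of edgeR on all 18 libraries, and a gene was called where the Benjamini-Hochberg adjusted p over 25318 genes was under 0.05 and the log2 fold change over 1 in either direction. From mESCs to 48 hr no Cdx gene was called, where 4.62% of all genes were called higher and 4.95% lower. The log2 fold change was 1.30 ± 0.78 (SE) for Cdx2 (edgeR, Benjamini-Hochberg adjusted p = 0.237), -0.38 ± 0.58 for Cdx1 (adjusted p = 0.680) and 0.01 ± 0.44 for Cdx4 (adjusted p = 0.992). No member had an unadjusted p under 0.05 in this fit, and DESeq2 called none. The Cdx2 value depended on which libraries set the spread. With the 12 libraries of these stages alone it was 1.30 with an adjusted p of 0.00697. The exact permutation test on log2 CPM, which needs no such estimate, gave p = 0.0021645 for Cdx2, the smallest that 6 against 6 libraries can give, and 0.0130 after Benjamini-Hochberg adjustment over 12 tests (3 genes in 4 comparisons).

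From 48 hr to 96 hr Cdx2 was called higher, as were 7.10% of all genes, and none of the 3 was among the 4.76% called lower. Its log2 fold change was 2.65 ± 0.75 (edgeR, Benjamini-Hochberg adjusted p = 0.0141). This call was lost when the code was fitted as a replicate block (log2 fold change 1.71, adjusted p = 0.142) and when the 96 hr library E14 was left out (1.88, adjusted p = 0.0519). The groups overlapped, since 3 of the 6 libraries at 96 hr lay above all those at 48 hr and 1 below all of them, and the exact permutation test gave p = 0.190 (adjusted 0.571). Cdx1 differed by 0.95 ± 0.58 (edgeR adjusted p = 0.234, Benjamini-Hochberg) with a 95% interval of -0.19 to 2.09, and Cdx4 by 0.79 ± 0.44 (adjusted p = 0.187) with an interval of -0.07 to 1.65. With a library left out, Cdx1 ran from 0.58 (without H9 at 96 hr) to 1.23 and Cdx4 from 0.38 (without E14 at 96 hr) to 0.98. Neither was called in any of these fits.

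Between mESCs and 96 hr EBs, a comparison that shares its samples with the other 2, Cdx2 rose by a log2 fold change of 3.95 ± 0.80 (edgeR, Benjamini-Hochberg adjusted p = 0.000682). It was the only Cdx gene called higher, beside 11.2% of all genes, and none was called lower, beside 9.65%. All 6 libraries at 96 hr lay above all 6 mESC libraries (exact permutation p = 0.0021645, adjusted 0.0130). Without E14 the log2 fold change was 3.17 and the call stood. Cdx1 and Cdx4 differed by 0.57 ± 0.57 and 0.80 ± 0.44 (edgeR adjusted p = 0.446 and 0.150, Benjamini-Hochberg), with 95% intervals of -0.55 to 1.69 and -0.05 to 1.65. With a library left out, Cdx1 ran from 0.20 (without H9 at 96 hr) to 0.82 and Cdx4 from 0.38 (without E14 at 96 hr) to 0.99, and neither was called.

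**Figure D3:**
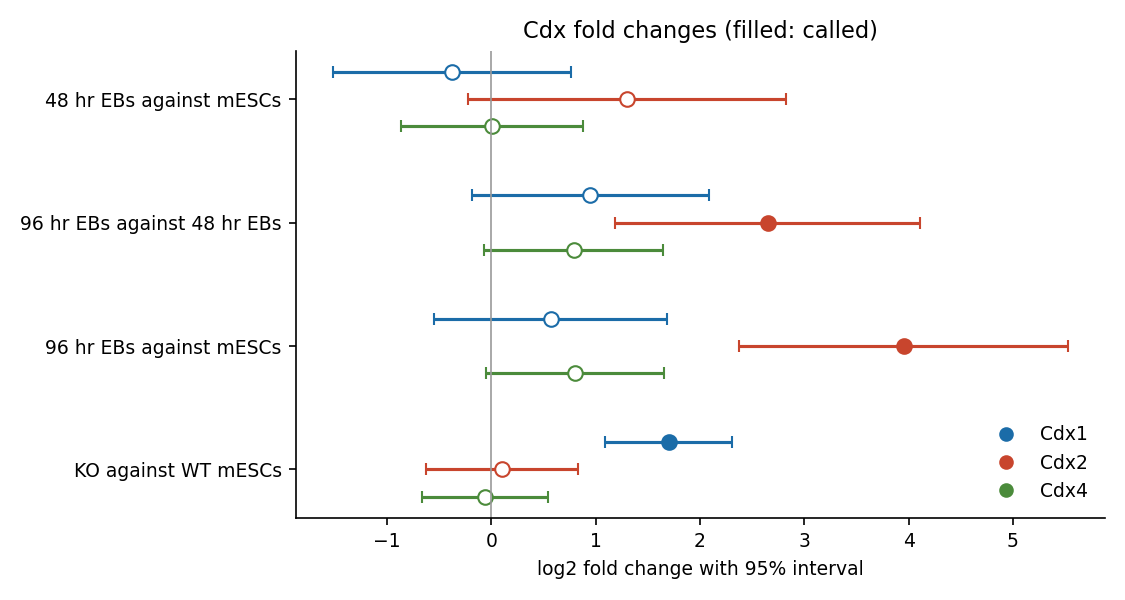
Log2 fold changes of the Cdx genes in the 3 comparisons of stages and in IκBα-KO against IκBα-WT mESCs (horizontal axis), as edgeR estimates with approximate 95% intervals. Filled points were called and open points were not. Cdx2 is called in both comparisons of the 96 hr EBs and Cdx1 between the genotypes of mESCs.

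The order of the members changed with the stage. Per kilobase of transcript (1750, 2261 and 1963 bases for Cdx1, Cdx2 and Cdx4), Cdx1 had a median level of 0.457 CPM per kb in mESCs, Cdx4 0.303 and Cdx2 0.140. Cdx1 and Cdx4 overlapped there, while the highest Cdx2 level, 0.182, was below the lowest level of either (0.263 and 0.207). At 48 hr the medians were 0.435, 0.300 and 0.299 for Cdx1, Cdx4 and Cdx2, and all 3 ranges overlapped. At 96 hr the median of Cdx2 was 1.13 CPM per kb, with a range of 0.192 to 6.97, that of Cdx1 0.847 (0.182 to 1.93) and that of Cdx4 0.451 (0.160 to 1.22). Of the summed level of the family, Cdx2 made up 7.89% to 22.1% in mESCs, and 75.6%, 58.8% and 49.2% in E14, H9 and H7 at 96 hr. In E3 at 96 hr Cdx1 held 63.4%.

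**Figure D4:**
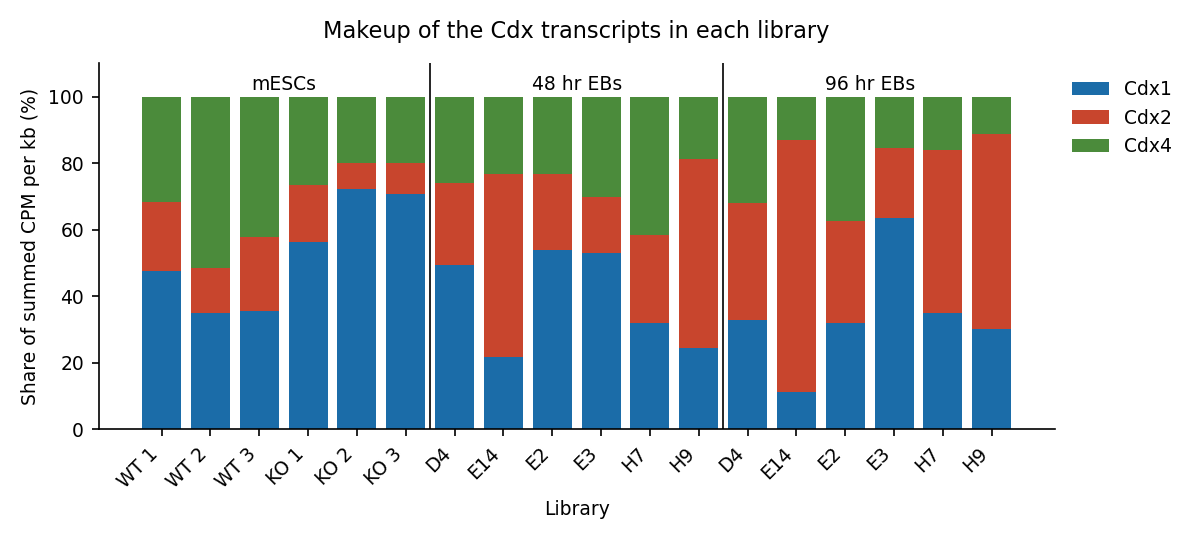
Share of Cdx1, Cdx2 and Cdx4 in the summed CPM per kilobase of the family (vertical axis, percent) in each library. Cdx1 holds 56.4% to 72.3% in the IκBα-KO mESCs, and Cdx2 75.6% in E14 at 96 hr.

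In mESCs the check of the genotype came first. Nfkbia had 1009, 1069 and 767 reads in the IκBα-WT libraries and 347, 385 and 372 in the IκBα-KO libraries, a log2 fold change of -1.67 ± 0.14 (edgeR, Benjamini-Hochberg adjusted p = 0.00489), so that its RNA was lower but not lost. The clones had been screened for absence of the protein.

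Cdx1 was higher in IκBα-KO mESCs. It lies at chr18:61018862-61036199 on the minus strand, between Slc6a7 and Pdgfrb. IκBα-WT libraries had a mean level of 0.499 ± 0.042 CPM and IκBα-KO libraries one of 1.63 ± 0.49 CPM (SD, n = 3 each), and the lowest IκBα-KO library, at 1.06 CPM, was above the highest IκBα-WT library, at 0.542 CPM. The log2 fold change was 1.70 ± 0.31 (edgeR on the 6 libraries, Benjamini-Hochberg adjusted p = 0.0242 over 21843 genes). Its 95% interval, 1.09 to 2.31, is a normal approximation from the SE, and one matched to the test would be wider. One of the 3 members was thus called higher, where 1.06% of all genes were, and none was among the 0.641% called lower. The exact permutation test gave p = 0.1 (adjusted 0.4), the smallest that 3 against 3 libraries allow. The call was lost without IκBα-WT 1, 2 or 3 or without IκBα-KO 3, with log2 fold changes of 1.56 to 1.77 and edgeR adjusted p of 0.0828, 0.147, 0.138 and 0.0820 (Benjamini-Hochberg).

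The other members were not called. Cdx2 was at 0.310 ± 0.083 CPM with IκBα and 0.336 ± 0.071 CPM without it (SD, n = 3 each), a log2 fold change of 0.11 with a 95% interval of -0.62 to 0.83. Cdx4 was at 0.607 ± 0.18 and 0.582 ± 0.022 CPM (SD, n = 3 each), a log2 fold change of -0.06 with an interval of -0.67 to 0.54. On the same normal approximation, neither interval reaches a log2 change of 1 in either direction. Intervals matched to the test would be wider.

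The genes beside Cdx1 were measured in the same libraries. Slc6a7, a proline transporter gene, had 93, 94 and 47 reads in IκBα-WT and 171, 211 and 175 in IκBα-KO libraries, which differed by a log2 fold change of 0.94 ± 0.27 (edgeR, Benjamini-Hochberg adjusted p = 0.0836) that did not pass. Pdgfrb, the gene of a PDGF receptor, differed by 0.29 ± 0.23 (adjusted p = 0.516). A window of 10 Mb centred on Cdx1 held 49 other genes that averaged 50 reads or more per library. Their median log2 CPM relative to the IκBα-WT mean was 0.07, 0.13 and 0.02 in the IκBα-KO libraries. Cdx1 itself had a mean difference of 1.55 on that scale. Whether its region has a part in this difference was not tested. Beside Cdx2, Urad had at most 3 reads in any library and Pdx1 at most 9. Beside Cdx4, Nap1l2 was lower in IκBα-KO mESCs (log2 fold change -1.13 ± 0.26, edgeR with Benjamini-Hochberg adjusted p = 0.0483), and Chic1 differed by -0.04 ± 0.11 (adjusted p = 0.876).

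Regulators and targets of the Cdx genes were described as lists, by counts and by medians set beside the median of all genes, which was -0.01 in 96 hr EBs against mESCs. In that comparison 11.2% of all genes were called higher and 9.65% lower. Without the 96 hr library E14, 2521 genes were called higher and 2051 lower, and the median of all genes was 0.01. Of the 20 Wnt ligands, effectors and feedback targets, 15 were called higher and 1 lower at 96 hr against mESCs (median log2 fold change 2.44). The largest increases were Sp5 (6.02 ± 1.31, edgeR with Benjamini-Hochberg adjusted p = 0.00122) and Sp8 (5.41 ± 0.98, adjusted p = 0.000244), transcription factors induced by Wnt. Notum, a secreted Wnt inhibitor, was the only one of the list that fell (-2.31 ± 0.40, adjusted p = 0.000153). Wnt3a, a ligand of the streak and tailbud, had 4, 78, 3, 13, 47 and 160 reads at 96 hr in D4, E14, E2, E3, H7 and H9 and did not pass against mESCs (1.38 ± 0.77, adjusted p = 0.157). Its highest libraries were those with the most Cdx2.

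Of the 12 FGF genes, 3 were called higher and 3 lower in that comparison (median -0.23). Fgf8, an FGF of the streak and tailbud, rose by 6.64 ± 0.90 (edgeR, Benjamini-Hochberg adjusted p = 1.47e-05), from 8 to 24 reads in mESCs to 161, 1854, 196, 229, 2064 and 3023 at 96 hr. Fgf3 rose by 2.68 ± 1.01 (adjusted p = 0.0384) on 2857 reads in E14, and without that library the value was -0.36 and not called. Fgf4 and Fgf17 fell by 1.81 and 1.60 on the log2 scale (adjusted p = 0.00238 and 0.0122). Of the 12 retinoic acid genes 5 were called higher and none lower (median 0.70). Without E14 3 were higher and 1, Crabp1, lower (-1.39 ± 0.19, adjusted p = 2.38e-05; median 0.66). Cyp26a1 rose by 5.85 ± 1.03 (adjusted p = 0.000178) and Dhrs3, which returns retinal to retinol, by 3.40 ± 0.44 (adjusted p = 7.66e-06). The Cyp26a1 counts at 96 hr were 106, 7062, 172, 72, 620 and 1623 in D4, E14, E2, E3, H7 and H9, and like those of Cdx2 were highest in E14, then H9, then H7.

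Genes of the primitive streak and posterior axial progenitors had the highest median of the lists. Of 16, 14 were called higher at 96 hr against mESCs and none lower (median 5.07), led by Lhx1 (9.61 ± 1.49, edgeR with Benjamini-Hochberg adjusted p = 5.41e-05) and T (9.49 ± 1.82, adjusted p = 0.000404), the Brachyury gene. T had 6 to 12 reads in mESCs and 50, 13507, 35, 27, 8462 and 17044 reads at 96 hr in D4, E14, E2, E3, H7 and H9. The summed level of the list at 96 hr was 1136.5, 724 and 1132 CPM in E14, H7 and H9 and 45.1, 47.0 and 40.7 CPM in D4, E2 and E3. At 48 hr E14 already had 551 reads of T, where the other libraries had 15 to 74, and it also had the most Cdx2.

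The Hox genes, the targets for which Cdx factors are best known, were split by paralog group, which follows their order from head to tail. Of the 8 genes of groups 1 to 3, 6 were called higher at 96 hr against mESCs and none lower (median 3.29), led by Hoxb2 (7.62 ± 1.22, edgeR with Benjamini-Hochberg adjusted p = 7.41e-05) and Hoxb1 (5.05 ± 0.78, adjusted p = 5.30e-05). In mESCs Hoxb2 had 0 to 1 reads per library and Hoxb1 1 to 7, so the size of these increases is set near the floor. Of 18 tested genes of groups 4 to 9, 5 were higher and 2 lower (median 0.52). Without the 96 hr library E14, 1 was higher and 3 lower in this group (median -0.38). Hoxa5 (1.39 ± 0.48, adjusted p = 0.0280) was the increase still called then. Hoxb5 and Hoxb6, with the largest increases (4.95 ± 1.44 and 3.68 ± 1.39, adjusted p = 0.00955 and 0.0392), had 47 and 23 reads in E14 and at most 6 in any other 96 hr library. Hoxb9 fell by 2.00 on the log2 scale (adjusted p = 0.000289), and Hoxb7 by 1.80 (adjusted p = 0.00618). Hoxa9 did not pass (0.67 ± 1.01, adjusted p = 0.627), with 14 reads in E14 and 0 to 4 in the other libraries at 96 hr. Of 10 tested genes of groups 10 to 13 none was higher and 3 were lower (median -0.74, and -1.58 without E14 with 3 lower), among them Hoxc12 and Hoxc13 (-3.91 ± 0.84 and -2.04 ± 0.44, adjusted p = 0.00102 and 0.00115). In mESCs Hoxc12 had 1 to 11 reads per library and Hoxc13 35 to 207. The summed level of groups 10 to 13 there was 2.74 to 8.46 CPM.

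**Figure D5:**
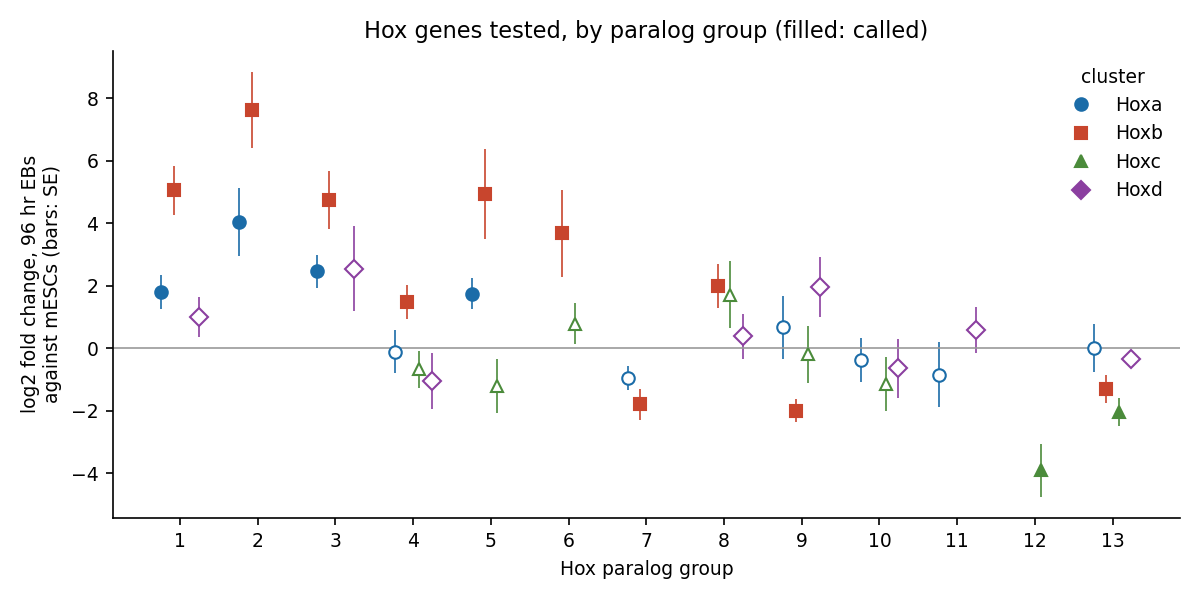
Log2 fold change of each tested Hox gene in 96 hr EBs against mESCs (vertical axis, edgeR estimate with its SE) by paralog group (horizontal axis), with a colour and symbol for each cluster; filled symbols were called. The called increases lie in groups 1 to 8, of which those of groups 4 to 8 other than Hoxa5 were not called without E14, and the called genes of groups 10 to 13 all fell.

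None of the other ParaHox genes or the intestinal genes was called higher at 96 hr against mESCs with all libraries fitted. Of Gsx1, Gsx2 and Pdx1, Gsx2 was called lower (-1.32 ± 0.50, edgeR with Benjamini-Hochberg adjusted p = 0.0390), on 9 reads or fewer per library. Without E14, Gsx1 was called higher and none lower. Of 8 intestinal genes 1, the sucrase-isomaltase gene Sis, was lower (-1.56 ± 0.46, adjusted p = 0.0102), where 9.65% of all genes were.

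Since Cdx2 also marks the trophectoderm, markers of that lineage were counted in the same libraries. Of 16, 5 were called higher and 2 lower at 96 hr against mESCs (median 0.06), where 11.2% and 9.65% of all genes were. Without E14 3 were higher and 2 lower (median -0.11). The summed level of the list was 138 to 234 CPM in mESCs, 94.4 to 206 CPM at 48 hr and 157 to 1145 CPM at 96 hr, where it was highest in E14, H9 and H7. The members that rose most were Tpbpa (4.51 ± 1.52, edgeR with Benjamini-Hochberg adjusted p = 0.0284), with 15 reads in E3 and at most 2 in any other library, and Eomes (4.39 ± 0.77, adjusted p = 0.000190), which is also a streak gene. Elf5, a defining trophoblast factor, had at most 10 reads in any library and 3, 6, 2, 8, 2 and 1 at 96 hr. Tfap2c and Ascl2 fell (-1.90 ± 0.27 and -1.24 ± 0.49, adjusted p = 2.36e-05 and 0.0493).

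Of the markers of other cell types, 9 of 11 pluripotency genes were called lower at 96 hr against mESCs and none higher (median -2.19), led by Klf4 (-4.50 ± 0.33, edgeR with Benjamini-Hochberg adjusted p = 2.19e-08) and Tfcp2l1 (-3.31 ± 0.35, adjusted p = 1.14e-06). Pou5f1, the gene of Oct4, differed by -0.37 ± 0.11 (adjusted p = 0.0116), below the fold threshold. Of 14 blood and endothelial genes 8 were higher (median 2.71), led by Hbb-bh1, an embryonic globin, and Kdr (6.77 ± 1.85 and 5.22 ± 1.21, adjusted p = 0.00653 and 0.00199), and without E14 4 were higher and 1 lower (median 0.18). Hbb-bh1 had 334 reads in the 96 hr library E14 and at most 1 in any other, and Kdr was at 2.24 ± 0.67 without E14 (adjusted p = 0.0133). Of 8 endoderm genes 3 were higher (median 2.23), led by Cer1 and Foxa2 (9.18 ± 1.67 and 5.25 ± 1.10, adjusted p = 0.000252 and 0.000875), and without E14 3 were higher with a median of 0.55. Foxa2 is also counted in the streak list, and Cer1 had 0 to 4 reads per library in mESCs. Of 8 anterior and neural genes 4 were higher and 1 lower (median 0.29), led by Six3 and Otx2 (3.81 ± 1.04 and 1.63 ± 0.23, adjusted p = 0.00658 and 1.93e-05). Without E14 3 of these were higher and 2 lower (median 0.38), and Six3 was at 2.08 ± 0.81 (adjusted p = 0.0495). Whether these cell types have a part in the Cdx levels was not tested.

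In the other comparisons of stages the lists ran as follows, beside medians of 0.00 and -0.03 for all genes. Of all genes, 4.62% were called higher and 4.95% lower at 48 hr, and 7.10% and 4.76% in the later step. At 48 hr against mESCs, 5 of 20 Wnt genes, 2 of 16 streak genes and 3 of 8 Hox genes of groups 1 to 3 were higher and none of these lists had a gene called lower, with medians of 0.55, 0.57 and 2.01. At 96 hr against 48 hr, 9 Wnt genes were higher and 1 lower (median 1.65), 13 of 16 streak genes higher and none lower (median 3.56), and 2 of 8 Hox genes of groups 1 to 3 higher and none lower (median 1.69). No Hox gene of groups 4 to 13 was called higher in either step, and in each step 1 of 18 tested genes of groups 4 to 9 and 2 of 10 of groups 10 to 13 were lower. They were Hoxb9, Hoxc12 and Hoxc13 at 48 hr and Hoxb7, Hoxb13 and Hoxd13 from 48 hr to 96 hr. Of the 12 FGF genes 3 were higher and 1 lower at 48 hr (median -0.20), and 2 higher and 1 lower in the later step (median -0.02). Of the 12 retinoic acid genes 2 were higher and 2 lower at 48 hr (median 0.42), and 3, Cyp26a1, Cyp26b1 and Cyp26c1, higher and none lower in the later step (median 0.47). Of 8 intestinal genes none was higher and 1 lower at 48 hr (median -0.02), while in the later step Muc2 and Vil1 were higher (2.28 ± 0.53 and 1.06 ± 0.26, edgeR with Benjamini-Hochberg adjusted p = 0.00425 and 0.00565) and Sis lower (median -0.75). Muc2, a mucin gene, had its highest counts at 96 hr in D4, E2 and E3, with 55, 95 and 35 reads against 8, 15 and 21 in E14, H7 and H9. Of the 3 other ParaHox genes 1 was higher and 1 lower at 48 hr, and none was called in the later step (medians -1.18 and 0.41).

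Among markers of other cell types, 7 of 11 pluripotency genes were lower and none higher at 48 hr, and 2 were lower in the later step (medians -1.59 and -0.58). Of 14 blood and endothelial genes none was called at 48 hr, and 9 were higher and none lower in the later step (medians -0.41 and 2.84). Of 8 endoderm genes none was called at 48 hr, and 4 were higher and none lower in the later step (medians -0.72 and 2.62). Of 16 trophectoderm markers 1 was higher and 1 lower at 48 hr, and 4 higher and 1 lower in the later step (medians -0.38 and 0.31). Of 8 anterior and neural genes 3 were higher and 1 lower at 48 hr, and none higher and 1 lower in the later step (medians 1.04 and -0.09).

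In IκBα-KO against IκBα-WT mESCs the median of all genes was 0.01, and 1.06% of them were called higher and 0.641% lower. Of 20 Wnt genes 3 were lower and none higher (median -0.18). They were Lef1 (-3.13 ± 0.36, edgeR with Benjamini-Hochberg adjusted p = 0.00626), a transcription factor that carries the Wnt signal, Wnt3 (-1.80 ± 0.41, adjusted p = 0.0451) and Notum (-1.01 ± 0.22, adjusted p = 0.0403). Names in this comparison were chosen after the values were seen. Stra6, the retinol receptor gene, was the only one of 12 retinoic acid genes called higher (2.42 ± 0.54, adjusted p = 0.0434; median of the list 0.28). None of the 15 tested streak genes passed (median 0.23), and T had 6 to 12 reads in each library. Hoxb4 was the only called Hox gene (2.35 ± 0.54, adjusted p = 0.0478), on 1 to 11 reads per library. Of 12 FGF genes Fgf3 was higher and Fgf15 lower (1.27 ± 0.26 and -1.05 ± 0.17, adjusted p = 0.0346 and 0.0151; median 0.02). The medians of the 4, 14 and 8 tested Hox genes of groups 1 to 3, 4 to 9 and 10 to 13 were 0.30, 1.38 and 1.06. These values lie near the floor, since the lists summed to 1.48 to 3.83, 2.79 to 4.49 and 2.74 to 8.46 CPM in mESCs. Markers of other cell types were counted in the same libraries. Of 6 tested endoderm genes none passed, but their median was 2.11, and the summed level of the list was 32.3, 13.5 and 43.2 CPM in IκBα-KO 1, 2 and 3 against 10.5, 11.3 and 11.98 CPM in the IκBα-WT libraries. Sox17, an endoderm transcription factor, had 121, 13 and 133 reads in IκBα-KO 1, 2 and 3 and 7 to 9 in IκBα-WT, a difference of 3.21 ± 0.83 that did not pass (edgeR with Benjamini-Hochberg adjusted p = 0.0643). IκBα-KO 2, the lowest of the 3 in endoderm genes, had 78 reads of Cdx1, beside 36 and 70 in IκBα-KO 1 and 3. Of 8 anterior and neural genes Sox1 was higher (1.45 ± 0.33, adjusted p = 0.0478) and none lower, with a list median of 0.55. None of 15 tested trophectoderm markers, 11 pluripotency genes, 11 blood and endothelial genes, 7 intestinal genes or 3 other ParaHox genes passed (medians 0.10, 0.05, 0.48, 0.45 and 0.20). The part of these cell types in the Cdx1 difference was not tested. Without IκBα-WT 2 edgeR called no gene in this comparison, while 3104 of 21342 genes had an unadjusted p under 0.05 and DESeq2 called 381, Cdx1 among them.

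Genes whose log2 CPM followed a Cdx gene most closely over the 18 libraries were taken from the genes that averaged 50 reads or more per library (13176 or 13177, the member itself left out). These are descriptions, and the libraries share stages and codes. For Cdx2 they were Dgkk, Rspo3, Exoc7, Pcdh7 and T, with Pearson r from 0.97 to 0.96. For Cdx4 they were Cyth1, Fryl, Rreb1, Unc5c and Samd5 (r from 0.87 to 0.84), and for Cdx1 Pmepa1, 2510009E07Rik, Myadm, Ttc28 and Nab1 (r from 0.92 to 0.84). The 3 lists had no gene in common. Between the members, r was 0.75 for Cdx2 and Cdx4, 0.67 for Cdx1 and Cdx4 and 0.52 for Cdx1 and Cdx2 (n = 18 libraries).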

How the data were processed

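RNA was sequenced as paired reads of 125 bases. The authors trimmed them with Trim Galore 0.6.6, aligned them with STAR 2.7.8 to GRCm38 with Ensembl annotation and assigned the uniquely mapped ones to exons with featureCounts of Subread 2.0.1. The deposited values are whole-number counts for 55487 genes without normalization. A second deposited table, of normalized values, was not used. The strand setting is not given in the sources used here.

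A minimum of 10 counts over the fitted libraries left 25318 genes for the 3 stages (18 libraries) and 21843 for mESCs (6 libraries). In R 4.3.3, edgeR 4.0.16 scaled libraries by TMM, estimated robust dispersions and ran the quasi-likelihood test. SE was taken as the size of the log2 change over the root of the F statistic. The fold threshold is a log2 change over 1, and the adjusted p (Benjamini-Hochberg) threshold 0.05. Log2 CPM used a prior count of 2. Permutation tests were exact and two-sided (scipy 1.17.1). Alternatives were size factors and the Wald test of DESeq2 1.42.0, other low-count filters, no fold threshold, libraries left out, the 2 stages alone, mESC genotypes apart and replicate blocks. List counts without the 96 hr library E14 were added after seeing the data.

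EB columns were tied to a stage by name. Their genotype was not inferred. The IκBα-WT and IκBα-KO clones were separate, so the replicate numbers of mESCs pair no clones. Deviations from the genotype means correlated at -0.12, -0.01 and -0.03 across genes between libraries of one number. Whether a number marks a shared batch was not tested. EB codes correlated at 0.40 to 0.73 between stages, although E14 at 48 hr correlated more with another code. The main edgeR test and the permutation test did not use the codes as pairs. They were fitted as a replicate block only among the alternatives. No pair of libraries agreed within sampling noise (lowest chi-square over its degrees of freedom 5.47). The members and the gene lists were chosen with earlier results of these data known. The genes named by rule were the Cdx genes and their neighbours, Nfkbia and the 5 genes most like each Cdx gene. From each list the 2 highest and 2 lowest called members at 96 hr against mESCs were named. A set of posterior and lineage genes was named whatever their values (T, Wnt3a, Fgf8, Cyp26a1, Hoxb9, Hoxa9, Pou5f1, Eomes, Elf5). Other list genes, such as Crabp1, Hoxa5, Gsx1, Muc2 and Vil1, fall outside this rule and were named after the values were seen. Gene positions came from GENCODE M21. The fits were tested on simulated counts. The values of 1 gene of the anterior and neural list are not reported here.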

Additional observations from a re-analysis of the deposited data

How the results depend on the processing

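Of 283 values taken under other settings, 254 kept their direction and side of the threshold or, for counts, stayed within 1.5 times. The setting with no fold threshold reused the main fit, so the Cdx values counted there could not change direction. With no fold threshold the calls numbered 7053 (48 hr against mESCs), 7019 (96 hr against 48 hr), 10894 (96 hr against mESCs) and 1046 (IκBα-KO against IκBα-WT), against 2422, 3003, 5278 and 372. DESeq2's Wald test called 572 genes between the genotypes. Leaving out 1 mESC library there gave 0 to 872 calls. The 0 came without IκBα-WT 2, where 3104 of 21342 genes had an unadjusted p under 0.05 by edgeR and DESeq2 called 381. Without IκBα-WT 3 there were 25 calls, without IκBα-KO 3 114, without IκBα-WT 1 174, without IκBα-KO 1 198, and without IκBα-KO 2 872.

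The Cdx1 difference between genotypes ran from 1.56 to 1.92 with a library left out (edgeR with Benjamini-Hochberg adjusted p from 0.00528 to 0.147), and the call was lost without IκBα-WT 1, 2 or 3 or IκBα-KO 3. The Cdx2 log2 fold change from 48 hr to 96 hr ran from 1.88 to 2.96 with a library left out and was 1.71 with the code as a replicate block. The Cdx2 value from mESCs to 48 hr was 1.30 and passed the threshold with only these 2 stages fitted. Fitting the mESC replicate number as a block, though it pairs no clones, left 261 calls between genotypes and Cdx1 at 1.66. The blocks changed no other Cdx call.

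Values close to 0 changed sign. Cdx4 from mESCs to 48 hr was -0.0053 with DESeq2 size factors, -0.0095 with no low-count filter, -0.0056 by the DESeq2 Wald test and -0.15 to 0.16 with a library left out. Between genotypes, with a library left out, Cdx2 ran from -0.073 to 0.31 (the lowest without IκBα-WT 2, and -0.066 without IκBα-KO 1) and Cdx4 from -0.28 to 0.12. The cause was not tested.

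The counts limit what can be said. Most libraries held under 50 reads of each Cdx gene, so small differences were not detectable at this depth, and with 3 libraries per genotype the spread between clones sets the precision.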
